A study of Mus musculus with 6 samples.

Results

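The comparison concerned the response of cardiac miRNAs to calorie restriction (CR) in young mice, set against feeding ad libitum (AL) at the same age. Young CR and young AL mice were male C57BL/6J mice of 6 months that had entered the diet at 3 months. They had been caged singly while food intake was measured before the diet, and the study does not clearly state the housing afterwards. CR mice received 10% fewer calories in week 1, 25% fewer in week 2 and 40% fewer for the last 10 of the 12 weeks, and AL mice ate standard chow freely. Ventricular tissue of 6 mice was pooled for each group, and 1 array was hybridized per pool, so the spread between mice is not measured and no test could be run. All mouse miRNA features with a signal above 0 on both young arrays were included. They numbered 583 of the 1114 mouse miRNA features on the array, and 17 of them name more than 1 miRNA. The series also holds such a pair of arrays from middle-aged mice of 15 months and from old mice of 22 months.

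A miRNA is a short RNA that is cut from a hairpin and guides a silencing complex to messenger RNAs, mainly through its seed, bases 2 to 8. Either strand of the hairpin, named 5p or 3p, can be kept. Heart muscle is known for miR-1, miR-133, miR-208a and miR-499, of which miR-208a comes from an intron of Myh6, the gene of the alpha myosin heavy chain. Other miRNAs mark other cells of the ventricle, such as miR-126 in endothelium, miR-143 and miR-145 in smooth muscle and miR-451a in red blood cells.

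The mature sequences that carry the findings were taken from RefSeq on build GRCm38.p6. Of the 583 features, 466 matched an entry by name. The first set shows miRNAs above the detection floor that were lower on CR by 1.5-fold or more, with the seed in capitals.
miR-451a: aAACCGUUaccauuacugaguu
miR-767: uGCACCAUgguugucugagca
miR-208a-3p: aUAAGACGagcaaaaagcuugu
miR-126a-3p: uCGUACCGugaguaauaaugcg
miR-133b-3p: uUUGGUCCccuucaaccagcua
miR-22-3p: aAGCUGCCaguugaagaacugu
These 6 miRNAs have 6 different seeds. miR-208a-3p lies at chr14:54949072-54949093 on the minus strand within Myh6, miR-126a-3p at chr2:26591402-26591423 on the plus strand within Egfl7, and miR-767 at chrX:72590050-72590070 on the minus strand within the span of Gabra3. No protein-coding gene spans miR-451a at chr11:78073186-78073207, miR-133b-3p at chr1:20682834-20682855 or miR-22-3p at chr11:75463772-75463793, all on the plus strand.

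The second set shows families that share a seed, because their members could be compared with each other on the same pair of arrays.
miR-29a-3p: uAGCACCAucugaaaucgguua
miR-29b-3p: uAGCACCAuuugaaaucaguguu
miR-29c-3p: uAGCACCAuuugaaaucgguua
miR-30a-5p: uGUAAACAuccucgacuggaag
miR-30c-5p: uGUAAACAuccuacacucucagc
miR-30e-5p: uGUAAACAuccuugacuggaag
miR-16-5p: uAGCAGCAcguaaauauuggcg
miR-15a-5p: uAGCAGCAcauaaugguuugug
miR-195a-5p: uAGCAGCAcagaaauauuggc
let-7a-5p: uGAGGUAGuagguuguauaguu
let-7b-5p: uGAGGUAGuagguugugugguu
let-7e-5p: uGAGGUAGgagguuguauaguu
The 2 miR-29 sequences of equal length, miR-29a-3p and miR-29c-3p, differ by C10U, and miR-30a-5p and miR-30e-5p differ by C13U, counted from the 5′ end with the base of the first-named miRNA in front. miR-29a-3p lies at chr6:31062673-31062694 on the minus strand and miR-29c-3p at chr1:195037600-195037621 on the plus strand. miR-30e-5p lies at chr4:120772660-120772681 on the minus strand within Nfyc, and let-7e-5p at chr17:17830366-17830387 on the plus strand within Spaca6.

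The third set shows miRNAs above the floor on both arrays that were not lower on CR by 1.5-fold or more and that share a short run of bases, here in capitals. These runs were chosen after the ratios had been seen.
miR-669n: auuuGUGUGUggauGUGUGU
miR-3082-5p: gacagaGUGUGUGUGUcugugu
miR-32-3p: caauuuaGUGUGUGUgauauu
miR-744-5p: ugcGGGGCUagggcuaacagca
miR-185-3p: aGGGGCUggcuuuccucuggu
miR-346-3p: aggcaGGGGCUgggccugcagc
miR-3473a: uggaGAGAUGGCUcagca
miR-3473b: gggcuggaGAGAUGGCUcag
miR-5128: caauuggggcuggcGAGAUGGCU

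Values are intensities as normalized by the authors, in array units. A signal was counted as above background only if it passed a floor, the 95th percentile of the viral miRNA features on the same array. The floor was 1.68 on the CR array and 1.86 on the AL array. It rests on few features, 19 viral features with a value on CR and 17 on AL, of which the brightest were at 2.52 and 2.33. On the CR array 644 mouse features had a value and 121 passed the floor, and on the AL array 586 had a value and 115 passed. Synthetic spike-in RNAs, which are added to a sample and do not come from the mouse, were mostly dimmer on the CR array. Of 48 spike-in features with a value on both arrays, 46 were lower on CR, by a median log2 ratio of -0.56 and with a range of -0.77 to 0.53. The 4 spike-in features above the floor on both arrays were at log2 ratios of -0.74 to -0.54. The small nuclear RNA U6 was measured by 2 features that went apart. The brighter, RNU6-1_RNU6-2, was at 15.9 on CR and 16.0 on AL, and the dimmer, RNU6-1, which did not pass the floor on AL, was at 2.34 on CR and 1.14 on AL. With 1 array a group, a difference between the arrays and a difference between the diets cannot be told apart. Each log2 ratio below is therefore to be read beside the median of -0.56 of the spike-ins. Setting that median to 0 raises every log2 ratio by 0.56, and setting the median mouse miRNA signals of the arrays equal raises it by 0.35. Differences between miRNAs on the same arrays are the same under either shift.

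As deposited, the young CR array had lower signals of bright heart miRNAs and higher signals of dim features. The viral miRNA features, used here as background, were also mostly higher on CR. Of 17 with a value on both arrays 6 were higher by 1.5-fold or more and none was lower, with a median log2 ratio of 0.27. Whether the diet has a part in the higher signals of dim features was not tested. Over all 583 features the median log2 ratio of CR to AL was 0.08, with 107 features higher on CR by 1.5-fold or more (18.4%) and 92 lower (15.8%). Among the 103 features above the floor on both arrays none was higher by 1.5-fold or more (0%), 24 were lower (23.3%), and the median was -0.18. Features higher on CR made up 53.8% of all calls as deposited, 40.5% after quantile and 35.9% after cyclic loess normalization, 71.2% with the viral median added to each value, 90% with equal array medians and 96.9% with equal spike-ins. Of the 24 bright features that were lower, 8 stayed so after quantile normalization, 7 after cyclic loess normalization and 16 with the viral median added. With equal array medians 3 stayed so and with equal spike-ins 0. All 24 kept a ratio below 1 in these settings. With equal array medians or spike-ins this was fixed in advance. The shifts of 0.35 and 0.56 are smaller than the log2 threshold of 0.58 by which the 24 were called. With equal array medians 14 bright features were higher and 3 lower, and with equal spike-ins 36 were higher and none lower, so which direction prevailed above the floor turned with the scale.

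The direction of the calls followed signal. In the dimmest of 6 signal classes of nearly equal size, with mean signals up to 0.0631, 58 of 97 features were higher on CR by 1.5-fold or more and 15 were lower, with a median log2 ratio of 0.79. In the next classes the median was 0.29, 0.11, -0.02 and 0.03. In the brightest class, from a mean signal of 2.03 to 30.6, it was -0.23, and 24 of 98 features were lower and none higher. The widest ratios belonged to dim features. Their values are best read in scanner steps, the smallest unit in which an array's values change. miR-592-3p was at 0.194 on CR and 0.00329 on AL, which is 244 steps against 4. miR-10a-5p, encoded in a Hox gene cluster, was at 131 steps on CR and 3 on AL, and miR-1893 at 29 steps on CR and 1 on AL. The lowest ratio of all was that of miR-146a-5p, an inflammation-induced miRNA, at 26 steps on CR and 137 on AL. All 4 lay far below the floor of about 2119 steps on CR and 2255 on AL.

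**Figure D1:**
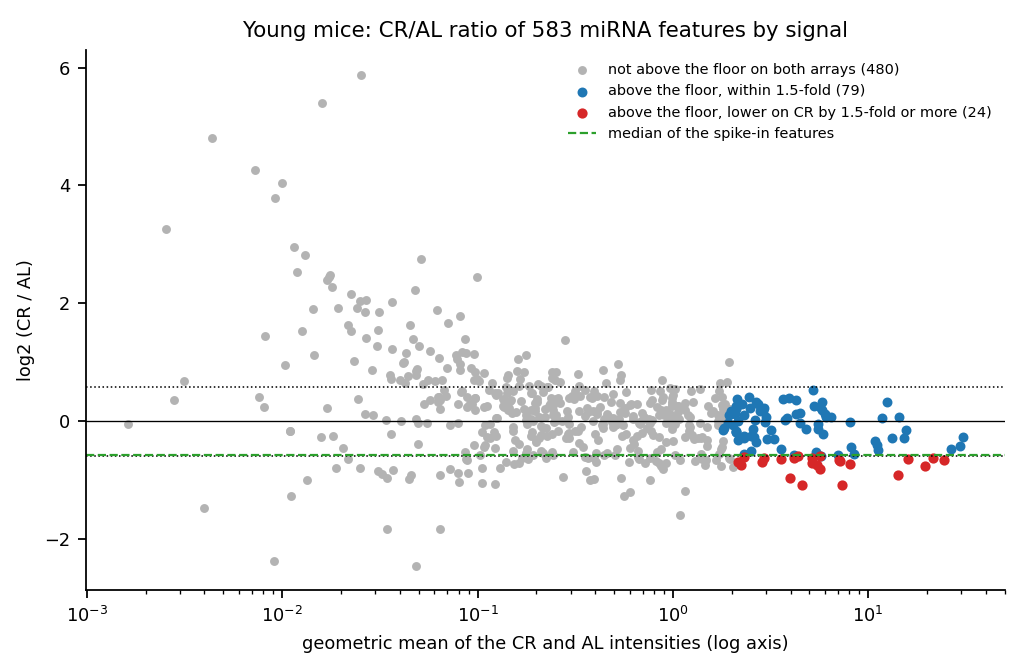
Log2 ratio of CR to AL (vertical axis) against the geometric mean of both intensities (horizontal log axis) for the 583 features, 1 point each. Dotted lines mark 1.5-fold and the dashed line the spike-in median of -0.56. The 24 red points above the floor are all below 0, and the ratios fan out upwards at low signal.

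A value on 1 young array alone was seen for 61 mouse features on CR and for 3 on AL, and these were left out. The brightest on CR were miR-696 at 0.0572, miR-5627-3p at 0.0556, miR-669b-5p at 0.0429, miR-702-5p at 0.0397 and miR-292a-3p at 0.0365. The brightest on AL was miR-181c-5p at 0.0107. All are far below the floor, as are the dimmest features that were kept, such as miR-203-3p at 0.00794 on CR and 0.000823 on AL.

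The miRNAs of heart muscle stood among the brightest and were mostly lower on CR, which also bears on the tissue label, since these markers of ventricular muscle were present on both arrays. Of the 11 muscle features 9 were lower on CR by 1.5-fold or more and 1 was higher. Over all features 15.8% were lower and 18.4% higher. The median log2 ratio of the muscle features was -0.74, against 0.08 over all features. With equal spike-ins the median of these muscle miRNAs was -0.17. In bulk ventricle, fewer cells of a type and less RNA per cell cannot be told apart.

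miR-208a-3p, the heart-specific miRNA of the Myh6 intron, had a signal of 10.4 on CR and 19.4 on AL, which is 1.87-fold lower on CR, and its 5p arm was at 0.197 and 0.379 in the same order. miR-133b-3p was at 19.4 on CR and 30.5 on AL, 1.57-fold lower. miR-133a-3p, a near copy of it, was at 12.8 on CR and 19.9 on AL, 1.56-fold lower. All 3 were lower on CR by 1.5-fold or more, with miR-208a-3p the furthest from the spike-in median. miR-499-5p, from an intron of the myosin gene Myh7b, was at 1.35 on CR and 2.29 on AL. miR-1a-3p, which is shared by heart and skeletal muscle, was at 9.46 on CR and 13.2 on AL, a log2 ratio of -0.48 that lies above the spike-in median, and it was 1.40-fold lower as deposited. The 2 precursors of miR-1a gave passenger strands of lower ratio, miR-1a-1-5p at 0.265 on CR and 0.528 on AL and miR-1a-2-5p at 0.470 on CR and 0.760 on AL. The exception was miR-206-3p, a miRNA of skeletal muscle that shares the seed of miR-1, at 0.331 on CR and 0.209 on AL, below the floor on both arrays. Its mature sequence also holds the run GUGUGU described below.

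Red blood cell miRNAs had the lowest median of any list as deposited, whereas after quantile normalization theirs was -0.85 and that of the white blood cell list -1.08. miR-451a, which is made with miR-144 from 1 transcript in erythroid cells, was at 5.06 on CR and 10.7 on AL, 2.12-fold lower and the lowest ratio above the floor. Its neighbour miR-144-3p was at 0.396 on CR and 0.910 on AL. The feature of miR-486a-5p and miR-486b-5p, also erythroid, had a log2 ratio of -0.46, within 1.5-fold. The median of the 3 features was -1.08, or -0.52 with equal spike-ins. Blood had been drawn by cardiac puncture and the hearts washed, and the amount of blood left in the pools was not tested.

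White blood cell and inflammation miRNAs were dim. None of their 9 features passed the floor. By 1.5-fold or more 5 were lower on CR and none was higher. Of all features below the floor on both arrays 13.3% were lower and 23.1% higher. The median of the white blood cell list was -0.99. The brightest, miR-142a-3p, a miRNA of all blood cell lineages, was at 0.764 on CR and 1.73 on AL, and its 5p arm at 0.0731 on CR and 0.151 on AL. miR-150-5p of lymphocytes was at 0.601 on CR and 0.715 on AL, and miR-223-3p of myeloid cells at 0.0437 on CR and 0.0568 on AL, both within 1.5-fold. When the viral median was added to each value the median of this list was -0.01.

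Endothelial and smooth muscle miRNAs were all lower on CR as deposited, by different amounts. miR-126a-3p, the endothelial miRNA of the Egfl7 gene, was at 15.0 on CR and 25.3 on AL, 1.69-fold lower, and miR-126a-5p at 3.38 on CR and 5.18 on AL. miR-143-3p was at 7.00 on CR and 9.51 on AL, and the feature of miR-145a-5p and miR-145b at 1.53 on CR and 2.07 on AL. None of the 4 smooth muscle features passed 1.5-fold, and their median of -0.40 turned to 0.17 with equal spike-ins.

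Of 11 fibroblast and matrix features 5 were lower on CR by 1.5-fold or more and 1 was higher, against 15.8% lower and 18.4% higher of all features, and the median was -0.55, which became 0.02 with equal spike-ins. The miR-29 family, which acts on collagen messages, held the 3 features above the floor. miR-29a-3p was at 4.53 on CR and 6.47 on AL, miR-29b-3p at 2.34 on CR and 3.62 on AL, and miR-29c-3p at 2.26 on CR and 3.63 on AL. The log2 ratios of these 3 miRNAs, which share the seed printed above, lay within 0.17 of each other. miR-21a-5p, known for its increase in stressed cardiac fibroblasts, was at 0.652 on CR and 1.04 on AL. miR-214-3p, from the transcript that also holds a copy of miR-199a, was close to equal at 0.667 on CR and 0.689 on AL.

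**Figure D2:**
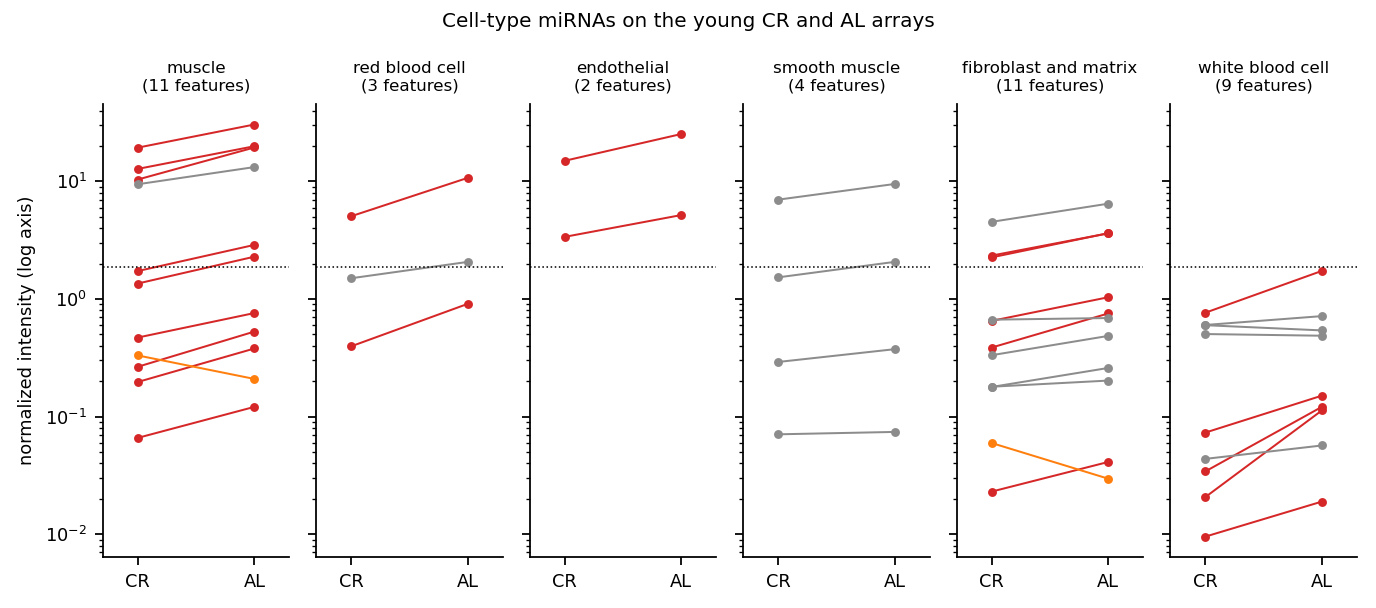
Normalized intensity (log axis) on the young CR and AL arrays for the miRNAs of 6 cell-type lists, each line 1 feature. Red lines are lower on CR by 1.5-fold or more, orange lines higher, grey lines within 1.5-fold, and the dotted line is the AL floor of 1.86. Of the 11 muscle lines 9 are red, and all 9 white blood cell features lie below the floor.

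miRNAs known from other organs, such as liver, brain and epithelium, were mostly very dim. None of 10 features passed the floor, 5 were higher on CR by 1.5-fold or more and 1 was lower, with a median of 0.57, which was 0.13 after quantile normalization. Of all features in the dimmest class 59.8% were higher, with a median of 0.79. The neuronal miR-124-3p was at 0.127 on CR and 0.0774 on AL. The epithelial miR-203-3p was higher on CR on the strength of 10 steps against 1. The liver miR-122-3p was the one lower feature, at 0.0548 on CR and 0.0955 on AL.

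**Figure D3:**
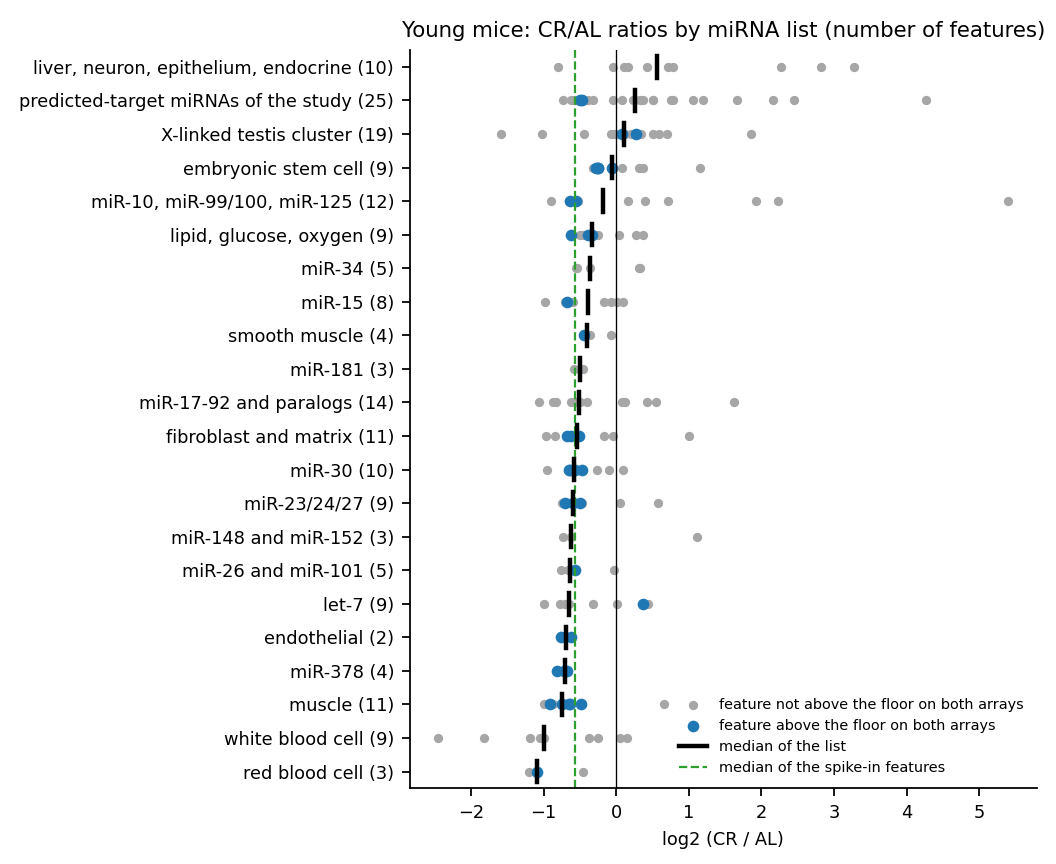
Log2 ratio of CR to AL (horizontal axis) of each feature in 22 miRNA lists, ordered by their medians (black bars), with features above the floor in blue. The dashed line is the spike-in median of -0.56. Red blood cell miRNAs are lowest at -1.08 and the miRNAs of other tissues highest at 0.57.

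As deposited, families that share a seed mostly had ratios below 1. The 466 matched features carry 399 seeds, of which 14 are shared by 3 or more features. Of these 14, 11 had a median log2 ratio below 0, and 216 of the 466 features had a ratio below 1. Equal spike-ins raise every log2 ratio by 0.56, which turns some of the 11 medians above 0, such as that of the miR-17 seed at -0.52. The miR-30 family is abundant in cardiac muscle. miR-30a-5p was at 4.68 on CR and 7.01 on AL, miR-30c-5p at 5.73 on CR and 8.51 on AL, and miR-30e-5p at 5.65 on CR and 8.87 on AL. These 3 log2 ratios spanned 0.08, although miR-30e-5p passed 1.5-fold and the others did not. Over the whole miR-30 list 4 of 10 features were lower by 1.5-fold or more, against 15.8% of all features. The median of the list was -0.58, or -0.01 with equal spike-ins. miR-30b-5p was at 4.16 on CR and 6.44 on AL and miR-30d-5p at 3.03 on CR and 4.21 on AL, at log2 ratios of -0.63 and -0.47.

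The miR-15 family, whose seed stands above and which is known to restrain cell division, had 5 matched members. miR-16-5p was at 1.70 on CR and 2.73 on AL, miR-15a-5p at 0.663 on CR and 1.08 on AL, and miR-195a-5p at 0.541 on CR and 0.820 on AL. miR-497a-5p was also lower at 0.0318 on CR and 0.0626 on AL, whereas miR-15b-5p was at 0.0342 on CR and 0.0337 on AL. The median of these 5 was -0.68. The whole list of 8 features, with passenger strands, had a median of -0.39, which turned to 0.18 with equal spike-ins and to 0.13 when the viral median was added.

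The let-7 family, which is widely expressed in adult tissue, was split. Of 9 features 5 were lower on CR by 1.5-fold or more and none was higher, against 15.8% and 18.4% of all features. The let-7 median was -0.65, or -0.08 with equal spike-ins. let-7b-5p was at 1.55 on CR and 2.65 on AL and let-7a-5p at 1.13 on CR and 1.77 on AL. let-7i-5p had the lowest ratio, at 0.545 on CR and 1.08 on AL. In contrast, let-7e-5p, the one member above the floor on both arrays, was at 2.43 on CR and 1.88 on AL. let-7f-5p was at 0.389 on CR and 0.288 on AL, and let-7d-5p nearly equal at 1.04 on CR and 1.03 on AL. Counted in the same way with the base of let-7a-5p in front, let-7e-5p differs by U9G and let-7f-5p by G12A, while let-7b-5p differs by A17G and A19G. Probes for miRNAs that differ by 1 base can share signal, which was not tested here.

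The miR-17 seed had 6 members, all below the floor, with a median of -0.52 and with 5 of 6 ratios below 1. The brightest of them, miR-106b-5p, was at 0.381 on CR and 0.555 on AL. A list of 14 features held the miR-17-92 cluster, which is tied to cell growth, and its paralogs at other loci. Its median was -0.51, which turned to 0.05 with equal spike-ins and to 0.18 when the viral median was added.

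The miR-378 family has its founder in Ppargc1b, a gene of mitochondrial metabolism. All 4 of its features were lower on CR by 1.5-fold or more, against 15.8% of all features. miR-378a-3p was at 5.69 on CR and 9.06 on AL, miR-378b at 6.28 on CR and 10.3 on AL, and the feature shared by miR-378a-3p, miR-378b and miR-378c at 4.27 on CR and 7.49 on AL. These 3 features, which name the same or related miRNAs and are not separate measurements, gave 1.59-, 1.64- and 1.76-fold lower signals on CR. The passenger strand miR-378a-5p was at 0.720 on CR and 1.17 on AL. The median was -0.71, or -0.15 with equal spike-ins. The 2 features that name miR-101a-3p were at 3.41 on CR and 5.05 on AL, and at 1.32 on CR and 2.09 on AL, 1.48- and 1.58-fold lower. Features that share a name did not always agree. The 2 that name miR-466a-3p were at 0.978 on CR and 0.866 on AL, and at 0.0548 on CR and 0.0132 on AL. Their log2 ratios were 0.18 and 2.06, and both were below the floor.

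The miR-23/24/27 clusters, active in endothelium and muscle, had 5 of 9 features lower by 1.5-fold or more, against 15.8% of all features. Their median was -0.59, or -0.03 with equal spike-ins. miR-23b-3p was at 4.03 on CR and 6.59 on AL, miR-23a-3p at 3.58 on CR and 5.39 on AL, and miR-24-3p at 2.12 on CR and 3.00 on AL. miR-27a-3p was at 1.14 on CR and 1.90 on AL. These 4 main strands were all lower on CR. The passenger strands were divided. miR-24-2-5p was at 0.289 on CR and 0.439 on AL, and miR-24-1-5p at 0.152 on CR and 0.211 on AL. miR-27a-5p was at 0.637 on CR and 0.616 on AL, and miR-23a-5p at 0.280 on CR and 0.188 on AL.

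In the miR-26 and miR-101 list 3 of 5 features were lower by 1.5-fold or more, against 15.8% of all features. The median was -0.63, or -0.07 with equal spike-ins, and miR-26b-5p was at 1.58 on CR and 2.45 on AL. The miR-181 family had none past 1.5-fold, a median of -0.50 that turned to 0.06 with equal spike-ins, and miR-181a-5p at 0.558 on CR and 0.788 on AL. The miR-34 family, targets of p53, had none of 5 past 1.5-fold, with a median of -0.36 that turned to 0.21 with equal spike-ins and to 0.03 with the viral median added. The list of miR-10, miR-99/100 and miR-125 was divided, with 4 of 12 features higher and 3 lower, against 18.4% and 15.8% of all features. Its median of -0.18 turned to 0.17 with equal array medians, to 0.39 with equal spike-ins and to 0.28 with the viral median added. Its bright members were lower, miR-125b-5p at 6.95 on CR and 10.2 on AL and miR-125a-5p at 2.86 on CR and 4.45 on AL, and the 3 miR-10 features with high ratios were all at or below 0.104 on CR.

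miRNAs tied to lipid, glucose and oxygen sensing had 1 of 9 features lower and none higher, against 15.8% and 18.4% of all features. Their median of -0.34 turned to 0.23 with equal spike-ins, to 0.01 with equal array medians and to 0.08 with the viral median added. miR-22-3p, abundant in heart and skeletal muscle, was at 17.2 on CR and 26.4 on AL, 1.54-fold lower. miR-103-3p and miR-107-3p, regulators of insulin signalling that differ by G22C, were at 9.63 and 9.66 on CR and at 12.2 and 12.7 on AL. Both ratios were above the spike-in median.

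Other features among the largest differences above the floor have less known roles in the heart. miR-767 was at 3.16 on CR and 6.66 on AL, 2.11-fold lower, and miR-1839-3p at 2.83 on CR and 5.53 on AL, 1.95-fold lower. Under every normalization tried these stayed below a ratio of 1, and the shifts of 0.35 and 0.56 are too small to have raised them above it. On the other side, the largest difference above the floor was that of miR-3473b, at 6.26 on CR and 4.34 on AL, 1.44-fold higher. miR-466f followed at 2.84 on CR and 2.13 on AL, then miR-669n at 4.52 on CR and 3.42 on AL, miR-3082-5p at 4.17 on CR and 3.21 on AL, and let-7e-5p. As deposited, no bright feature passed 1.5-fold in this direction. Of the 30 features above the floor on 1 array alone, 3 were higher by 1.5-fold or more, named here after their values were seen: miR-882 at 2.76 on CR and 1.37 on AL, miR-503-5p at 2.38 on CR and 1.49 on AL, and miR-1931 at 2.18 on CR and 1.39 on AL. Another 8 of the 30 were lower, among them miR-463-3p of the X-linked testis cluster, at 0.627 on CR and 1.88 on AL.

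The features of highest signal differed widely in their ratios. miR-491-3p, the brightest on CR, was at 27.8 on CR and 33.5 on AL, miR-5100 at 25.6 on CR and 34.2 on AL, and miR-3963 at 22.4 on CR and 31.1 on AL. All 3 were within 1.5-fold. miR-690 was at 14.7 on CR and 16.4 on AL, miR-290a-5p at 13.8 on CR and 16.7 on AL, and miR-744-5p at 11.9 on CR and 14.6 on AL. miR-1971 was the one of the 12 brightest with a ratio above 1, at 18610 steps on CR and 16970 on AL. The 5 of the 12 brightest that were lower by 1.5-fold or more were miR-133b-3p, miR-22-3p, miR-126a-3p, miR-133a-3p and miR-208a-3p. After quantile normalization only miR-208a-3p of these 5 stayed past 1.5-fold, at a log2 ratio of -0.60, while miR-133b-3p was at -0.19, miR-22-3p at -0.14, miR-126a-3p at -0.31 and miR-133a-3p at -0.37. With equal array medians or spike-ins none of the 5 stayed past 1.5-fold.

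The 5p and 3p arms of a hairpin come from 1 precursor and could be compared for 103 hairpins. Signals of different probes are not on a common scale, so the arm of higher signal is only the brighter probe. Over these hairpins the brighter arm had a median log2 ratio of -0.07 and the dimmer arm 0.20. In the 34 hairpins with at least 1 arm above the floor, the brighter arm was lower on CR by 1.5-fold or more in 10 and higher in none. The dimmer arm was lower in 7 and higher in 6. Of all features above the floor on both arrays 23.3% were lower and 0% higher, and of all features 15.8% were lower and 18.4% higher. The difference between the arms thus went with the trend of the ratios with signal.

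Both arms were lower by 1.5-fold or more in 6 of these 34 hairpins, namely those of miR-126a, miR-133a, miR-208a, miR-29c, miR-30e and miR-378a. The log2 ratios of the arms were -0.91 for the 3p and -0.95 for the 5p strand of miR-208a, -0.64 for the 3p and -0.74 for the 5p strand of miR-133a, and -0.65 for the 5p and -0.66 for the 3p strand of miR-30e. Among heart hairpins with neither arm above the floor on both arrays, miR-499 had ratios of -0.76 for 5p and -0.88 for 3p.

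Other hairpins had arms that went apart. miR-125a-5p had a log2 ratio of -0.64, while its 3p arm was at 0.210 on CR and 0.128 on AL, a log2 ratio of 0.71, the one hairpin of the 34 with arms past 1.5-fold in opposite directions. miR-1843a-3p was at 1.91 on CR and 2.80 on AL, with a 5p arm of 49 steps on CR and 9 on AL. miR-503-3p was at 4.60 on CR and 5.03 on AL, whereas miR-503-5p was 1.59-fold higher on CR. Names with no arm, 105 of the features, had a median of 0.25, with 30 higher and 7 lower on CR. These are 28.6% and 6.67%, against 18.4% and 15.8% of all features.

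**Figure D4:**
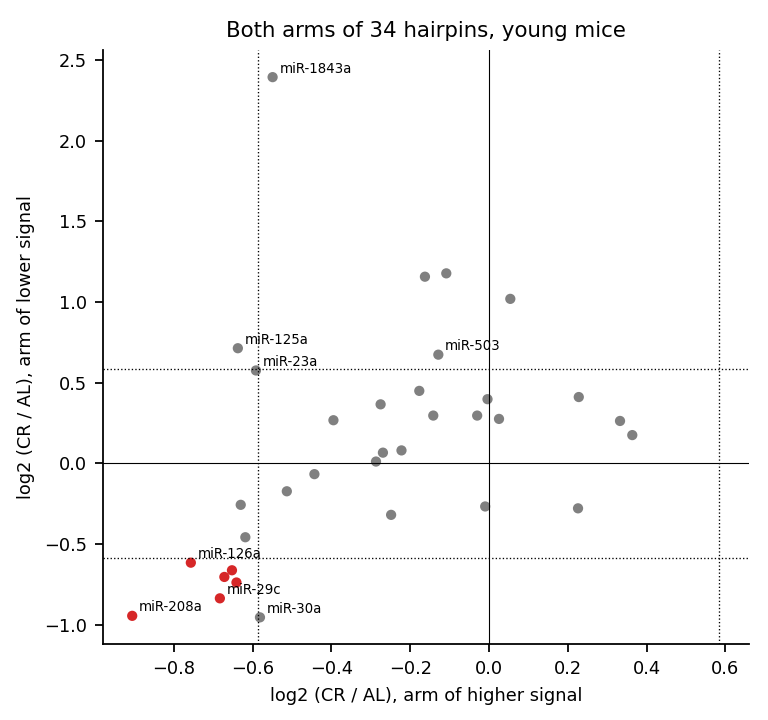
Log2 ratio of CR to AL of the dimmer arm (vertical axis) against the brighter arm (horizontal axis) for the 34 hairpins with at least 1 arm above the floor, dotted lines at 1.5-fold. The 6 red points are hairpins with both arms lower by 1.5-fold or more, and no brighter arm lies to the right of the 1.5-fold line.

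Hairpins that lie within 10000 bases of each other are often made from 1 transcript. Among the matched miRNAs 52 groups of 2 or more names, with the arm left off, lay within this distance. Of these 14 had all ratios below 1, 6 all above 1 and 32 a mixture. Some of the 52 are only the arms of 1 hairpin whose names differ by a copy number, such as miR-125b-5p and miR-125b-2-3p. Groups of neighbouring hairpins are therefore fewer. In 2 groups all members were lower by 1.5-fold or more, miR-144-3p with miR-451a at chr11:78073047-78073207, and miR-29b-3p with both arms of miR-29c at chr1:195037091-195037621. The group of miR-99b, let-7e and miR-125a at chr17:17830194-17830876 was mixed, with log2 ratios of -0.64 for miR-125a-5p and 0.37 for let-7e-5p. The embryonic stem cell group from miR-290a to miR-294 at chr7:3218639-3220676 had log2 ratios between -0.32 and 0.37 over 7 features, none of them past 1.5-fold.

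Base composition moved with the ratios. In the 74 features above the floor with a sequence, Spearman's correlation of the log2 ratio across miRNAs was 0.44 with the share of guanine, -0.24 with cytosine, -0.27 with adenine and -0.04 with uracil. These miRNAs share the same pair of arrays and are not independent. Among the 25 miRNAs of highest guanine share, 28.6% to 50% of bases, 1 was lower on CR by 1.5-fold or more, and the median was 0.08. Among the 25 of lowest share, 4.55% to 18.2%, 7 were lower and the median was -0.30, and among the 24 between them 8 were lower with a median of -0.33. The same correlation was -0.27 for the middle-aged pair of arrays and -0.08 for the old pair. Over all features with a sequence it was 0.32 for the young, -0.15 for the middle-aged and 0.01 for the old pair. Whether labelling or hybridization has a part in this was not tested.

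**Figure D5:**
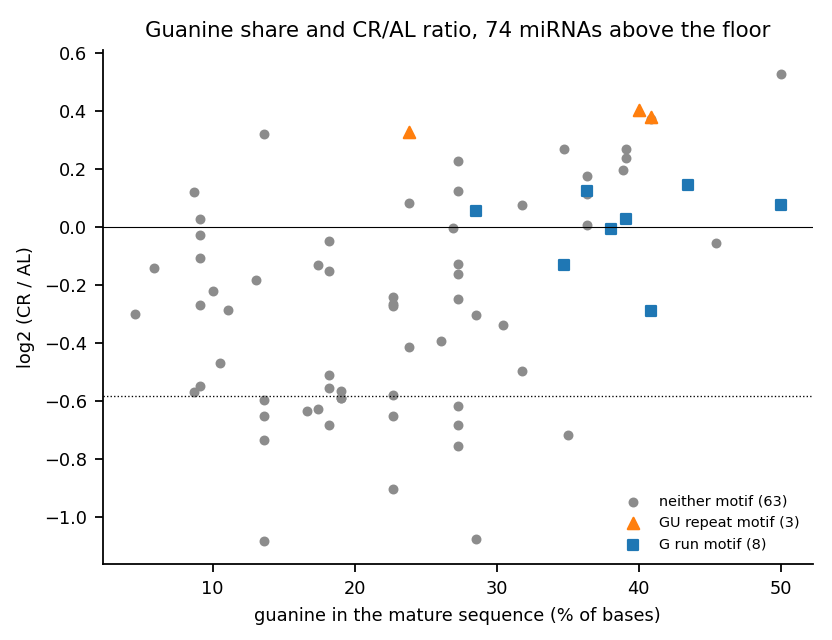
Log2 ratio of CR to AL (vertical axis) against the share of guanine in the mature sequence (horizontal axis, % of bases) for 74 miRNAs above the floor on both arrays, with 3 holding the GU repeat (triangles) and 8 the G run (squares). The dotted line marks 1.5-fold lower. The miRNAs of highest guanine share lie mostly above 0.

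Short runs of bases were searched on the mature strand only, where GUGUGU can overlap itself. The run GUGUGU is found in 1.01% of the 1679 mature sequences of the table and in 9 of the matched features. All 9 had a ratio above 1, as did 250 of the 466 matched features. The median of the 9 was 0.51, and 4 of them were higher by 1.5-fold or more, against 17.2% of matched features. The 3 above the floor, printed above, were miR-669n, miR-3082-5p and miR-32-3p at 4.52, 4.17 and 2.99 on CR and at 3.42, 3.21 and 2.38 on AL. miR-574-5p was at 1.47 on CR and 1.03 on AL. The run GGGGCU is found in 1.67% of mature sequences and in 13 features, of which 8 passed the floor and none of these was past 1.5-fold in either direction, with a median of 0.04. miR-185-3p was at 8.04 on CR and 8.09 on AL, and miR-346-3p at 6.64 on CR and 6.31 on AL. The run GAGAUGGCU is found in 0.238% of mature sequences. miR-3473a was at 6.24 on CR and 5.45 on AL, and miR-5128, which holds GGGGCU as well, at 4.70 on CR and 4.25 on AL, so all 3 features with this run had a ratio above 1.

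The names miR-297, miR-466, miR-467 and miR-669, mouse miRNAs that come in many near-identical copies, made up 55 features, grouped after their ratios had been seen. Of these 48 had a ratio above 1, with a median of 0.33. By 1.5-fold or more 10 were higher on CR, a share close to the 18.4% of all features, and none was lower, against 15.8% of all features. The 12 above the floor had a median of 0.26 and none past 1.5-fold. miR-466i-5p was at 6.51 on CR and 5.17 on AL and miR-669c-5p at 4.83 on CR and 3.75 on AL, while miR-467e-3p was at 3.04 on CR and 3.35 on AL. Such copies can share signal, so their features are not separate measurements.

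miRNAs that the study paired with predicted targets of the energy-sensing kinase AMPK and the Foxo transcription factors were mostly dim. The study chose this list on these arrays, so its counts are not independent evidence. Of 32 listed miRNAs 25 had a value on both arrays, 8 were higher on CR by 1.5-fold or more and 2 were lower, and only miR-30d-5p and miR-24-3p passed the floor. Of all features 18.4% were higher and 15.8% lower, and of those below the floor on both arrays 23.1% were higher, and 59.8% in the dimmest class. For Foxo genes 3 of 5 were higher. They were miR-200c-3p at 59 steps on CR and 33 on AL, miR-135b-5p at 40 on CR and 2 on AL, and miR-5127 at 72 on CR and 41 on AL. For AMPKα2 2 of 4 were higher, miR-200c-3p again and miR-421-3p at 60 steps on CR and 13 on AL, while miR-92a-3p was at 251 steps on CR and 360 on AL. For the cohesin subunit RAD21 4 of 5 were higher, with miR-297a-5p at 0.232 on CR and 0.112 on AL the brightest of the 4. For Bim, a protein that promotes cell death, 2 of 10 were lower, miR-148a-3p at 0.136 on CR and 0.209 on AL and miR-152-3p at 0.120 on CR and 0.198 on AL, and for the cell cycle inhibitor p21 neither of 2 passed 1.5-fold. A further list held miRNAs assayed by RT-qPCR or discussed with them, also not chosen independently of these arrays. For the assayed ones the study reported that RT-qPCR upheld its array changes, and those measurements are not part of the data used here. In this list 10 features had a value, all below the floor, with 5 lower and 2 higher on CR. The 2 higher were miR-2137 at 0.732 on CR and 0.372 on AL and miR-1892 at 0.338 on CR and 0.188 on AL.

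The X-linked testis cluster had 3 of 19 features higher and 2 lower on CR, against 18.4% higher and 15.8% lower of all features, and a median of 0.11 against 0.08. Its brightest feature, miR-883a-5p, was at 6.26 on CR and 5.94 on AL. Embryonic stem cell miRNAs had 1 of 9 higher and none lower, with a median of -0.05 that turned to 0.14 after quantile, to 0.12 after cyclic loess normalization, to 0.29 with equal array medians, to 0.51 with equal spike-ins and to 0.14 with the viral median added. miR-294-5p of that list was at 5.44 on CR and 5.63 on AL.

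The same diet at the other ages gave other ratios, each against its own AL array. Of the 24 features above the floor that were lower in young CR mice by 1.5-fold or more, 6 were lower and 1 was higher by that factor in middle-aged mice, where 18.1% of all features were lower and 37.4% higher, and 30.6% and 10.8% of those above the floor. In old mice 4 of the 24 were lower and none was higher. Of all features 9.94% were lower and 12.6% higher there, and 6.21% and 1.13% of those above the floor. A ratio below 1 was seen in old mice for 22 of the 24, and for 147 of all 177 features above the floor. In middle-aged mice it was seen for 14 of the 24, and for 66 of all 111. The median log2 ratio of the 24 was -0.18 in middle-aged and -0.29 in old mice. Over all features above the floor it was -0.19 and -0.24. miR-451a had log2 ratios of -1.08, -0.84 and -0.75 at 6, 15 and 22 months, and miR-133b-3p -0.65, -0.82 and -0.82. miR-208a-3p was at -0.91, 0.17 and -0.24, and miR-126a-3p at -0.76, -0.04 and -0.62. As deposited, the red cell miRNA and miR-133b-3p were thus lower on CR at every age, and miR-208a-3p was not. At 6 months the ratio of miR-133b-3p lay near the spike-in median of -0.56. No spike-in median is given here for 15 and 22 months, so the ratios at those ages cannot be set beside one. No difference between ages was tested, since each age has 1 array a group.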

How the data were processed

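RNA was labelled with Hy3 and hybridized by the authors to miRCURY LNA arrays (v.18.0), 1 array per group, scanned, and extracted with GenePix Pro 6.0. What was deposited are intensities, in array units, that the authors had normalized. The sources used here do not give the normalization method, the background correction or whether spike-ins entered. A second table, of the series' values, was identical in all 21204 cells compared.

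Log2 ratios of CR to AL were taken without a pseudocount for mouse miRNA features with a value on both young arrays, and called at 1.5-fold or more, the study's threshold. With 1 array a group there is no replicate error and no p-value, and the array number limits the precision. The floor was the 95th percentile of viral miRNA features. There were 23 lists with 350 entries, drawn up from general knowledge or from the study. The members and lists were chosen with earlier results of these data known. Named were list members, the 12 brightest features, the 5 largest differences in each direction above the floor, the 5 brightest features on 1 array alone, hairpins with both arms measured, and seed families of 4 or more, of which there were 3. Smaller families, base runs and the miR-466 group were added after values were seen. Sequences came from RefSeq (GRCm38.p6) by name. Quantile and cyclic loess normalization used limma 3.58.1 in R 4.3.3 on 1654 features with a value on both arrays, and the rest Python 3.11.15, pandas 2.3.3 and scipy 1.17.1, after tests on simulated data. The 2272 unnamed features served for normalization and were otherwise only counted.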

Additional observations from a re-analysis of the deposited data

Results flagged for a closer look

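Results whose direction at another age was opposite by 1.5-fold or more were set apart. These differences were not tested, since each group has 1 array. The median log2 ratio of the muscle list was -0.74 at 6 months and 0.63 at 15 months. Over all features the median was 0.08 at 6 months and 0.30 at 15 months. As deposited, miR-133b-3p, the brightest of the muscle list, was lower at both ages, at -0.65 and -0.82. That of the miR-23/24/27 list was -0.59 at 6 months and 0.67 at 15 months, and among bright features miR-23a-3p went the same way, at -0.59 (3.58 on CR, 5.39 on AL) at 6 months and 0.67 (15.1 on CR, 9.51 on AL) at 15 months. The list of miR-148 and miR-152, of 3 dim features, was at -0.62 at 6 months and 1.65 at 15 months.

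Signals outside the miRNA comparison were also present. SNORD68, a small nucleolar RNA often used as a reference, was at 2.68 on CR and 4.78 on AL, a log2 ratio of -0.83. RNU5, a spliceosomal RNA, was at 3.36 on CR and 2.11 on AL, a log2 ratio of 0.67. Of the unnamed features 186 passed the floor on both arrays, with a median log2 ratio of -0.08, of which 16 were lower on CR by 1.5-fold or more and none was higher.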

How the results depend on the processing

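The counts depended on the floor and on the scale between the arrays. Features higher on CR numbered 107 as deposited, 3 among features past the floor on 1 array or more, 0 past it on both, 70 after quantile and 60 after cyclic loess normalization, 216 with equal array medians, 314 with equal spike-ins and 57 with the viral median added. Features lower on CR numbered 92 as deposited, and 32, 24, 24, 10 and 23 under the floor rule for 1 array or more, the floor rule for both, equal array medians, equal spike-ins and the viral median added, while quantile (103), cyclic loess (107) and single-name features (89) stayed within 1.5 times. The median log2 ratio was 0.08 as deposited, -0.14 past the floor on 1 array or more, -0.18 past it on both, 0.42 with equal array medians, 0.64 with equal spike-ins and 0.24 with the viral median added. The let-7 median turned to 0.37 past the floor on both arrays, where only let-7e-5p was left, and the median of miR-148 and miR-152 to 0.00345 with the viral median added. The cause of the other changes was not tested. No paired analysis was possible because each group has 1 array, and for the same reason no replicate could be left out. Ratios of dim features, which rest on few scanner steps, have no measured precision.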
